A study of Mus musculus with 6 samples.

Results

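The apical anion and sodium-proton exchangers of the colon epithelium were read by 15 of the 45101 probe sets of the array, those annotated with exactly 1 gene symbol that is Slc26a2, Slc26a3, Slc26a6, Slc9a2, Slc9a3, Slc9a3r1 or Atp12a. A probe set is a small group of short probes that reads 1 or more transcripts. Slc26a3 has 4 of them, Slc26a2 and Slc9a3r1 have 3 each, Slc9a3 has 2, and Slc26a6, Slc9a2 and Atp12a have 1 each. No filter on low values was applied, so every probe set is shown. The tested mice were vil-Cre-Bcl9-/-/Bcl9l-/-, in which both co-activators of beta-catenin are deleted by a Cre driven from the villin promoter in intestinal epithelium, and the comparison was with wildtype mice. Mice of both groups were 12 weeks old and on a 129SvEv/C57BL/6/DBA/2 mixed background. The knockout arrays 1, 2 and 3 held pools of 3, 2 and 2 mice, and the wild type arrays 4, 5 and 6 held pools of 3 mice each. Cre is named for the knockouts only, so its own effect and that of losing the co-activators cannot be told apart. The comparison asks which transport genes of healthy colon change when this arm of Wnt signalling is removed.

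Colonic surface cells absorb salt by running an apical sodium-proton exchanger beside an apical chloride-bicarbonate exchanger, so that sodium and chloride enter while protons and bicarbonate leave. Slc26a3, also called DRA, is the main chloride-bicarbonate exchanger of the colon, and its loss causes congenital chloride diarrhoea in humans. Slc9a3 and Slc9a2 encode the exchangers NHE3 and NHE2, and Slc9a3r1 encodes NHERF1, a scaffold with PDZ domains that ties apical transporters to ezrin. Slc26a2 carries sulfate, which mucin sulfation needs, Slc26a6 exchanges chloride for bicarbonate or oxalate, and Atp12a is the catalytic subunit of the colonic proton-potassium pump.

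RefSeq promoters of build GRCm38.p6 were matched by symbol for 4 of the 7 genes. The windows of the chloride and the sodium exchanger that work as a pair are shown because beta-catenin acts through TCF/LEF factors bound to DNA, and each window holds the 250 bases before the annotated start on the plus strand, at chr12:31437969-31438218 for Slc26a3 and at chr13:74121163-74121412 for Slc9a3. Capitals mark matches on either strand to the TCF/LEF core CTTTGA, the TATA box TATAAA and the Sp1 box GGGCGG, which did not overlap each other here.
Slc26a3: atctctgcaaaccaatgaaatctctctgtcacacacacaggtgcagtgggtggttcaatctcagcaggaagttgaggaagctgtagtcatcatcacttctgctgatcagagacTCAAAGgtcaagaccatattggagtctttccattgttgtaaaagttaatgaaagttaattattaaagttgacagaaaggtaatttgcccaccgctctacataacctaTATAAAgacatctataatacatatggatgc
Slc9a3: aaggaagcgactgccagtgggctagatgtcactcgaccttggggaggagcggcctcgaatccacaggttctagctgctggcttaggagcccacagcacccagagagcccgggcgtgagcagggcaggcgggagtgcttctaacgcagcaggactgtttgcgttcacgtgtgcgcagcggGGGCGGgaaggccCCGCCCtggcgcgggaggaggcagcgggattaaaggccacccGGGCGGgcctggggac
The Slc26a3 window had 38.8% G and C and held 1 TCF/LEF core on the minus strand, 137 to 132 bases before the start, and 1 TATA box 30 to 25 bases before it. The Slc9a3 window had 67.6% G and C, no match to either of these, and 3 Sp1 boxes. Among the 32851 promoters of the table, 13.8% held the TCF/LEF core, 12.4% the TATA box and 32.7% the Sp1 box in the same window. The Slc26a6 and Slc9a3r1 windows held 1 and 3 Sp1 boxes and neither of the other motifs. These matches are letters in a window and not measured sites.

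The values are RMA expression values on the log2 scale, on which 1 unit is a doubling, and array medians lay between 5.44 and 5.58. Any pair of arrays correlated at 0.975 to 0.990 across the probe sets. Wild type 6 stood apart, with a score of 82.5 on the leading principal component (40.2% of the variance) against -34.5 to 9.56 in the other 5 arrays. On the next component (20.3% of the variance) wild type 5 was the extreme array, at -54.7. Wild type 4 and 6 scored -2.63 and -10.2 there, and the knockouts 18.4 to 29.9. The level of 8 B and plasma cell markers, taken as the median of each gene's distance from its own 6-array mean, was -0.89 to -0.53 in knockout arrays and -0.94 to 2.81 in wild type arrays, with 2.81 in wild type 6. The levels of 8 general epithelial markers, from -0.041 to 0.036 in knockout arrays and from -0.0061 to 0.0041 in wild type arrays, varied little, and those of 7 surface colonocyte markers ran from -0.096 to 0.092 in knockout arrays and from -0.021 to 0.067 in wild type arrays. All 8 epithelial and all 7 surface colonocyte markers lay above the median gene. The deleted genes do not settle the labels, since the sources used here do not say whether their probes lie in the deleted parts. By the brightest probe set of each, Bcl9 differed by 0.11 (SE 0.20) and Bcl9l by 0.22 (SE 0.15), knockout minus wild type. The material was unsorted, so that fewer cells of a type and less RNA per cell cannot be told apart.

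None of the 15 exchanger probe sets differed between genotypes by limma's test adjusted over all probe sets. Of them 10 read lower and 5 higher in the knockouts, with a median difference of -0.047, beside 0.0017 for all probe sets. Over the whole array 49.6% of probe sets read lower. Several of the 15 read the same gene, and by the brightest probe set of each, 4 of the 7 genes read lower. The adjusted p of the 15 ran from 0.991 to 0.999. Over the array limma called 0 probe sets (0%), with a smallest adjusted p of 0.328. An unadjusted p under 0.05 was reached by 1 of the 15, a Slc9a3 probe set, where 4.16% of all probe sets reached it. The 95% intervals extended 0.28 to 0.72 either side of the difference, and 0.38 for the median probe set of the array. No interval reached a 2-fold difference in either direction, and 7 of 15 reached beyond 1.5-fold.

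**Figure D1:**
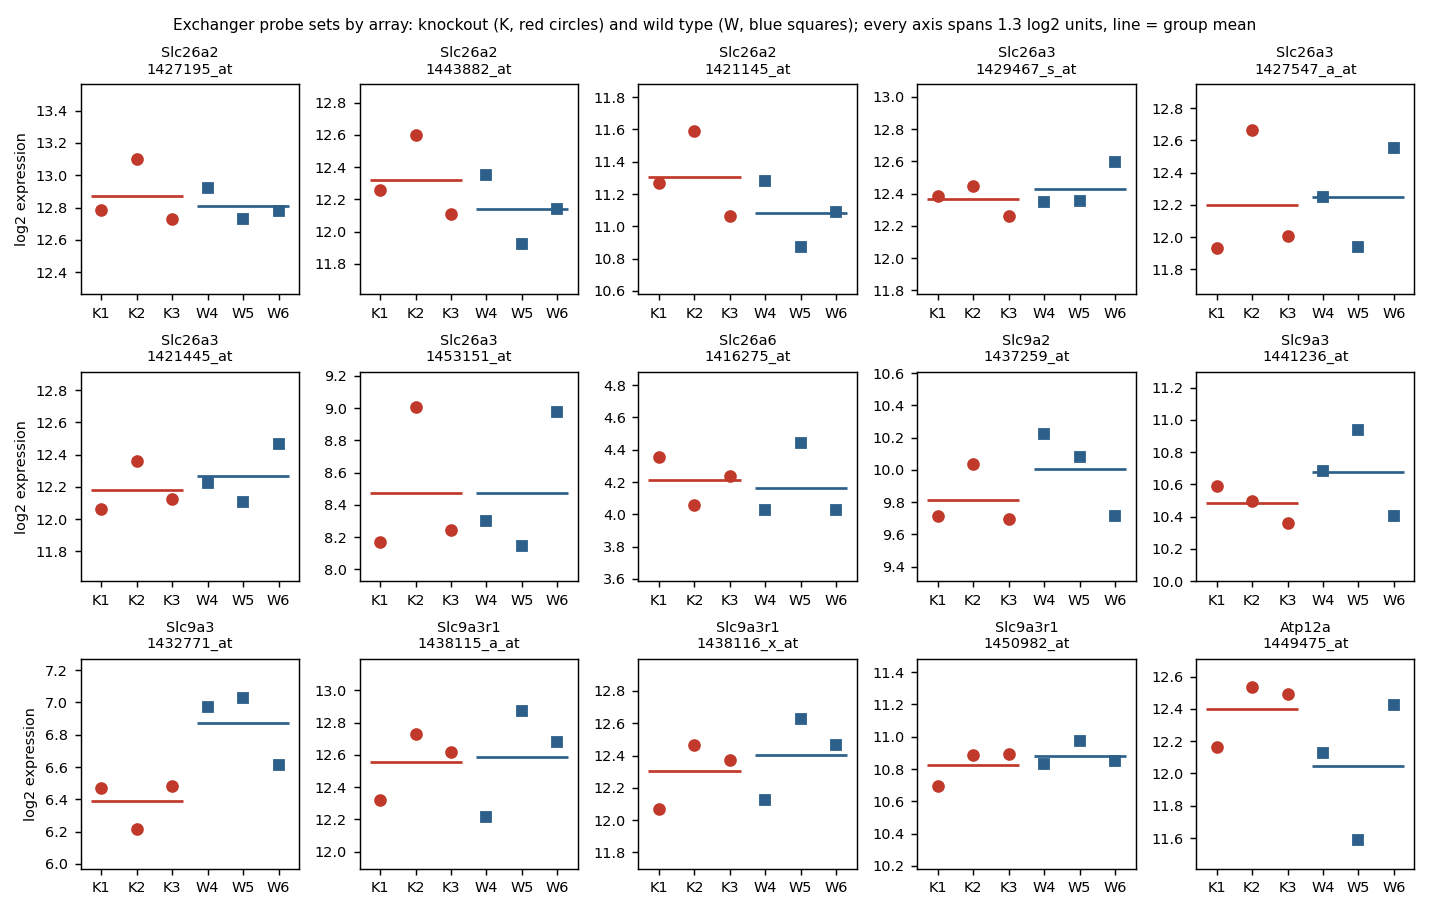
Log2 expression of the 15 exchanger probe sets on each array, with knockouts 1 to 3 as red circles and wild type 4 to 6 as blue squares. Lines are group means (n = 3), and every panel spans the same number of log2 units. The groups are apart only in the Slc9a3 probe set 1432771_at, and the Slc26a3 panels share high values in knockout 2 and wild type 6.

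Slc26a3, the chloride-bicarbonate exchanger, had no called difference in any of its 4 probe sets, and the 4 differences ran from -0.084 to -0.0034. Probe set 1429467_s_at gave 12.38, 12.45 and 12.26 in the knockouts, against 12.34, 12.35 and 12.59 in wild type. The difference was -0.066 (SE 0.13, limma adjusted p = 0.991), and its 95% interval ran from 0.776-fold to 1.18-fold of wild type. The groups overlapped, with wild type 6 highest. Probe set 1421445_at gave 12.06, 12.36 and 12.12 in the knockouts, against 12.22, 12.11 and 12.46 in wild type. Probe set 1427547_a_at gave 11.93, 12.66 and 12.01 in the knockouts, against 12.25, 11.94 and 12.55 in wild type. These 2 differed by -0.084 (SE 0.15) and -0.047 (SE 0.25). The remaining probe set, 1453151_at, was annotated from the same sequence as 1429467_s_at and is not independent of it. It gave 8.17, 9.00 and 8.24 in the knockouts, against 8.30, 8.15 and 8.97 in wild type, a difference of -0.0034 (SE 0.30).

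The 6 arrays of each Slc26a3 probe set spanned 0.34 to 0.86 log2 units. Knockout 2 and wild type 6 were the 2 highest arrays in all 4 probe sets, so the gene had 1 high array in each group. Leaving out wild type 6 turned all 4 differences above 0, to between 0.016 and 0.25. Leaving out knockout 2 took them to between -0.28 and -0.11. The part of cell mixture in these high readings was not tested. The B and plasma cell level was 2.81 in wild type 6 but -0.53 in knockout 2. The surface colonocyte level was 0.067 in wild type 6 and 0.025 in knockout 2. It was 0.092 in knockout 3 and 0.053 in wild type 5, and -0.096 in knockout 1 and -0.021 in wild type 4.

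Slc26a2, the sulfate transporter, read slightly higher in the knockouts in each of its 3 probe sets, within the spread between arrays. Probe set 1427195_at gave 12.78, 13.10 and 12.73 in the knockouts, against 12.92, 12.73 and 12.78 in wild type, a difference of 0.063 (SE 0.14). Probe set 1443882_at gave 12.26, 12.60 and 12.11 in the knockouts, against 12.35, 11.93 and 12.14 in wild type, a difference of 0.18 (SE 0.18). Knockout 2 was the highest array and the groups overlapped in both. Probe set 1421145_at gave 11.27, 11.59 and 11.06 in the knockouts, against 11.28, 10.87 and 11.09 in wild type, a difference of 0.23 (SE 0.18, limma adjusted p = 0.991). It too was highest in knockout 2, without which the 3 differences were -0.052, 0.041 and 0.085.

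Slc26a6, the other chloride-bicarbonate and oxalate exchanger of the group, was the 1 member whose probe set lay below the median probe set of the array. It gave 4.35, 4.06 and 4.24 in the knockouts, against 4.03, 4.44 and 4.03 in wild type. The difference was 0.050 (SE 0.16, limma adjusted p = 0.995). No detection call was used, so this reading is not shown to be above background, and no statement on the gene's expression in colon follows from it.

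Slc9a3, which encodes NHE3, had the lowest differences of the group. Probe set 1432771_at gave 6.47, 6.21 and 6.48 in the knockouts, against 6.97, 7.03 and 6.61 in wild type. All 3 knockout values lay below all 3 wild type values, as they did for 4.78% of all probe sets. Knockout arrays averaged 6.39 ± 0.15 and wild type arrays 6.87 ± 0.23 (SD, n = 3 per genotype). The difference was -0.48 (SE 0.16, 95% interval -0.86 to -0.11), or 0.716-fold. Adjusted over the array it was not called (limma adjusted p = 0.991, unadjusted p = 0.0186). Without any 1 array the difference ran from -0.61 (without wild type 6) to -0.40 (without knockout 2), with adjusted p at or above 0.746.

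The other Slc9a3 probe set, 1441236_at, which has the higher mean and stands for the gene in fits by the brightest probe set, had a difference nearer 0. It gave 10.59, 10.49 and 10.36 in the knockouts, against 10.68, 10.93 and 10.41 in wild type. The groups overlapped, since wild type 6 lay below knockouts 1 and 2. Knockout arrays averaged 10.48 ± 0.11 and wild type arrays 10.67 ± 0.26 (SD, n = 3 per genotype). The difference was -0.19 (SE 0.16, limma adjusted p = 0.991). The interval ran from 0.669-fold to 1.14-fold. Without wild type 5, the highest array, the difference was -0.064, and without wild type 6 it was -0.33. With the mean of both probe sets the gene differed by -0.34 and was not called (limma adjusted p = 0.944, unadjusted p = 0.0497). The sources used here do not say whether both probe sets read the same Slc9a3 transcripts, and the difference between them was not tested.

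Slc9a2, which encodes NHE2, gave 9.72, 10.04 and 9.69 in the knockouts, against 10.22, 10.08 and 9.72 in wild type. Wild type 6 read as low as knockouts 1 and 3, and knockout 2 lay between the wild type values, so the groups overlapped. The difference was -0.19 (SE 0.18, limma adjusted p = 0.991), with an interval from 0.656-fold to 1.17-fold. It was -0.34 without wild type 6 and -0.082 without wild type 4.

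Slc9a3r1, the scaffold NHERF1, had no called difference in its 3 probe sets. Probe set 1438115_a_at gave 12.32, 12.73 and 12.62 in the knockouts, against 12.22, 12.87 and 12.68 in wild type, a difference of -0.034 (SE 0.20). Probe set 1438116_x_at, annotated from the same sequence, gave 12.07, 12.46 and 12.37 in the knockouts, against 12.13, 12.63 and 12.46 in wild type, a difference of -0.10 (SE 0.18). In both, knockout 1 and wild type 4 were low and wild type 5 was highest. Probe set 1450982_at, from another sequence, gave 10.69, 10.89 and 10.89 in the knockouts, against 10.83, 10.97 and 10.85 in wild type, a difference of -0.060 (SE 0.12, limma adjusted p = 0.991). Its interval, from 0.791-fold to 1.16-fold, was the narrowest of the 15. Leaving out knockout 1 turned all 3 differences slightly above 0.

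Atp12a, the pump subunit, had the highest difference of the group. It gave 12.17, 12.53 and 12.50 in the knockouts, against 12.13, 11.59 and 12.42 in wild type. Wild type 5 lay well below the other 5 arrays, and wild type 6 lay among the knockouts. Knockout arrays averaged 12.40 ± 0.20 and wild type arrays 12.05 ± 0.43 (SD, n = 3 per genotype). The difference was 0.35 (SE 0.23, limma adjusted p = 0.991), or 1.28-fold with an interval from 0.871-fold to 1.87-fold. Without wild type 5 the difference was 0.12, and without wild type 6 it was 0.54 (limma adjusted p = 0.861). The small intestine markers, 6 of 7 measured and only 2 above the median gene, had their highest level, 0.11, in wild type 5. Single markers of the list had other orders. Slc9a3, Slc26a6 and each Slc9a3r1 probe set were also highest in that array. Atp12a, each Slc26a2 probe set and Slc26a3 probe set 1453151_at were lowest there. The part of the sampled stretch of gut in these values was not tested.

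**Figure D2:**
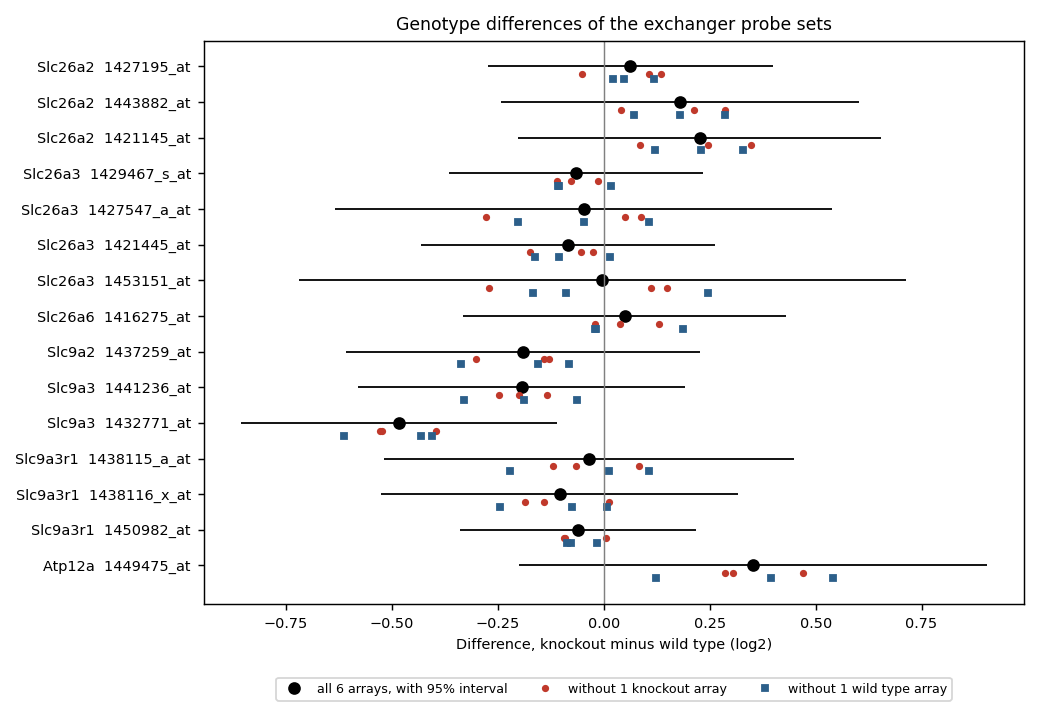
Difference in log2 expression, knockout minus wild type, of the 15 exchanger probe sets. Black points and bars are the fit on all 6 arrays with its 95% interval, and small red circles and blue squares are the fits without 1 knockout or 1 wild type array. The interval of Slc9a3 probe set 1432771_at, from -0.86 to -0.11, is the 1 that leaves out 0, and the points of Slc26a3, Slc26a6, Slc9a3r1 and 1 Slc26a2 probe set fall on both sides of 0.

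The way each member varied over the 6 arrays was set against the other genes by the root mean square gap between profiles, each centred on its own mean and read by the gene's brightest probe set. Among the members, Slc26a2 and Slc26a3 lay nearest each other (0.15 log2 units). Slc9a2 and Slc9a3 (0.165) and Slc26a6 and Slc9a3 (0.172) followed, while Slc9a3 and Atp12a lay farthest apart (0.51). The Slc26a6 reading is not shown to be above background, so its gaps may not describe the gene. The gap is not scaled to the size of a profile, so profiles that vary little lie near each other. Slc26a2 and Slc26a3 varied least, spanning 0.37 and 0.34 log2 units over the arrays. Among 9091 other genes above the median gene, the nearest to Slc26a3 were Gramd3 (0.038) and Psg23 (0.042), those to Slc9a3 were Gucd1 (0.040) and Mapkapk5 (0.058), and those to Atp12a were B4galt1 (0.056) and Bmp2k (0.074). The nearest to Slc26a2 were Synpo (0.027) and Arih2 (0.027), those to Slc26a6 were Alg9 (0.038) and Zfp995 (0.038), those to Slc9a2 were Gsk3a (0.043) and Ano1 (0.055), and those to Slc9a3r1 were Ermard (0.056) and Myd88 (0.068). Psg23, Arih2 and Zfp995 were each read by an _x_at probe set, and whether it reads only the named gene was not tested. With so many genes and 6 arrays, small gaps occur for any profile, and these are descriptions of 6 values each.

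Related transporters, pumps and regulators, in 5 lists that also hold genes of other membranes and tissues, had no calls either. Of 55 listed genes 46 were measured with 1 symbol, the rest were not analysed here, and limma called 0 of 46 over all genes, as it called 0% of all 18194 genes. An unadjusted p under 0.05 was reached by 1 of them (2.17%, beside 4.71% of all genes). The genotypes stood apart, with no overlap, in 8 of them (17.4%, 5 lower and 3 higher), beside 10.3% of all genes (4.83% lower and 5.5% higher). The median difference of the 46 was -0.043, beside 0.0096 for all genes.

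The scaffolds and regulators held 5 of those 8 genes. Of 16 measured, 6 lay below 0 and 10 above, with a median of 0.054. Sgk3, a kinase related to Sgk1, gave 6.82, 6.65 and 6.71 in the knockouts, against 7.04, 7.31 and 8.06 in wild type. The groups were apart, with wild type 6 far above the rest, and the difference of -0.74 (SE 0.26, limma adjusted p = 0.953) was -0.45 without that array. The other Sgk3 probe sets differed by -0.89 and -0.50. Sgk1, a steroid-induced kinase that stimulates NHE3, gave 11.51, 11.44 and 11.46 in the knockouts, against 11.58, 11.79 and 11.87 in wild type, a difference of -0.27 (SE 0.12, limma adjusted p = 0.953). The higher 2 of the list's leading 4 were Prkaca, the catalytic subunit of protein kinase A, which inhibits NHE3, at 0.25 (SE 0.12) and Myo6, a motor of endocytosis at the brush border, at 0.21 (SE 0.11), with their other probe sets at -0.025 and at 0.034 to 0.14. The fifth gene, named after its values were seen, was Pdzd3, a PDZ scaffold of apical transporters, at 0.14 (SE 0.11).

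Among the other sodium-proton exchangers, 5 of 7 lay below 0, with a median of -0.092. Slc9a8, which encodes the apical exchanger NHE8, gave 7.67, 7.72 and 7.66 in the knockouts, against 7.89, 7.90 and 7.82 in wild type. The groups were apart with little spread in either, but the difference was small, -0.19 (SE 0.10, limma adjusted p = 0.953), and its 3 other probe sets ran from -0.0029 to 0.22. Slc9a7, an exchanger of the Golgi, differed by -0.78 (SE 0.45) and by -0.21 without wild type 6, Slc9a9, an endosomal exchanger, by 0.18 (SE 0.16) and Slc9b1 by -0.13 (SE 0.12), all 3 below the median gene. The 3 other Slc9a9 probe sets ran from -0.19 to 0.11 and the 4 other Slc9b1 probe sets, all above 0, from 0.018 to 0.13.

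The other Slc26 transporters and the Slc4 family were mostly dim. Of 7 measured Slc26 genes 6 lay below 0, with a median of -0.060 and 1, Slc26a11, above the median gene. Slc26a1, a sulfate transporter, differed by -0.14 (SE 0.11), Slc26a4, which encodes pendrin, by -0.16 (SE 0.15), Slc26a11 by -0.076 (SE 0.11) and Slc26a10 by -0.060 (SE 0.17). Of 9 Slc4 bicarbonate transporters 4 lay below 0, with a median of 0.011 and 2 above the median gene. Slc4a1, the anion exchanger of red blood cells, differed by -0.21 (SE 0.11) with the groups apart, and its 2 other probe sets by -0.51 and -0.18. Slc4a10 differed by 0.25 (SE 0.25), which was -0.032 without knockout 3. Slc4a11 differed by -0.11 (SE 0.12) and Slc4a3 by -0.056 (SE 0.13), with 1 other probe set each, at -0.26 and -0.074. All 4 genes lay below the median gene.

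Of 7 pump subunits 4 lay below 0, with a median of -0.10. Atp1b3, a beta subunit of the sodium pump, differed by -0.19 (SE 0.11) with the groups apart. Fxyd4, a small regulator of the sodium pump that aldosterone induces in colon, gave 9.58, 9.98 and 8.76 in the knockouts, against 10.54, 10.08 and 9.42 in wild type. It varied widely in both groups, and the difference of -0.57 (SE 0.38, limma adjusted p = 0.953) ran from -0.87 without wild type 6 to -0.23 without knockout 3. Fxyd3 differed by 0.15 (SE 0.13) and Atp4a, the gastric pump subunit, by -0.14 (SE 0.15).

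**Figure D3:**
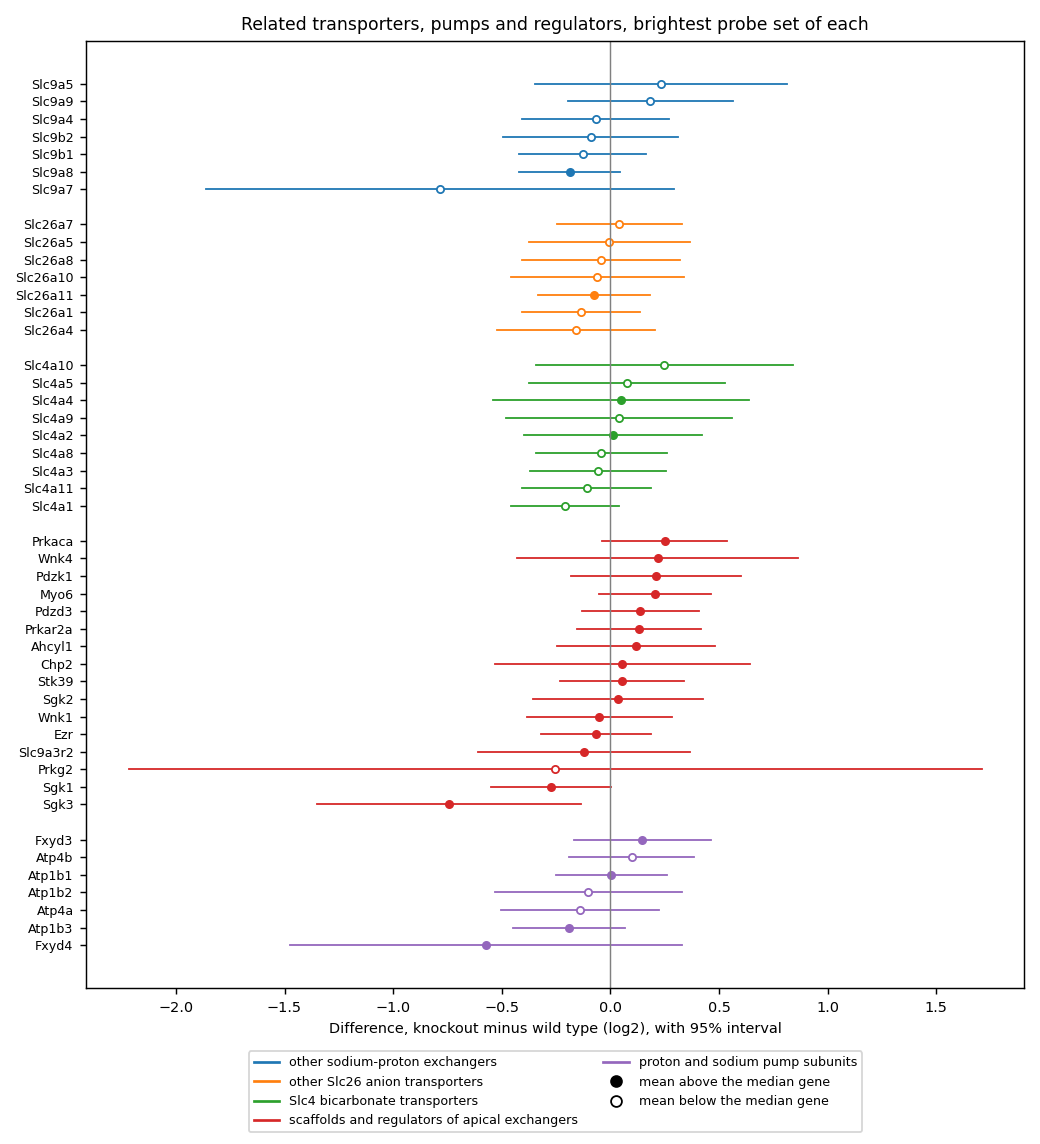
Difference in log2 expression, knockout minus wild type, with 95% intervals, for 46 related transporter, pump and regulator genes in 5 lists (colours), each by its brightest probe set. Filled points lie above the median gene and open points below it. The interval of Sgk3 is the 1 that leaves out 0.

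Levels of B and plasma cell, T cell and fibroblast markers were highest in wild type 6. T cell markers, 8 measured and all 8 below 0, had levels of -0.59 to 0.21 in knockout arrays and -0.15 to 0.96 in wild type arrays, and fibroblast markers, 5 of 6 below 0, had levels of -0.52 to -0.13 in knockout and -0.052 to 0.93 in wild type arrays. Smooth muscle markers, 5 of 6 below 0, had levels of -0.32 to -0.055 in knockout arrays and -0.33 to 0.56 in wild type arrays, with wild type 4 (0.46) nearly as high as wild type 6. Goblet cell markers, all 7 measured, had levels of -0.14 to 0.033 in knockout arrays and -0.024 to 0.065 in wild type arrays, with 0.0028 in wild type 6. The 7 exchanger genes had levels of -0.11 to 0.13 in knockout arrays and -0.063 to 0.17 in wild type arrays. The part of these cell types in the exchanger values was not tested.

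**Figure D4:**
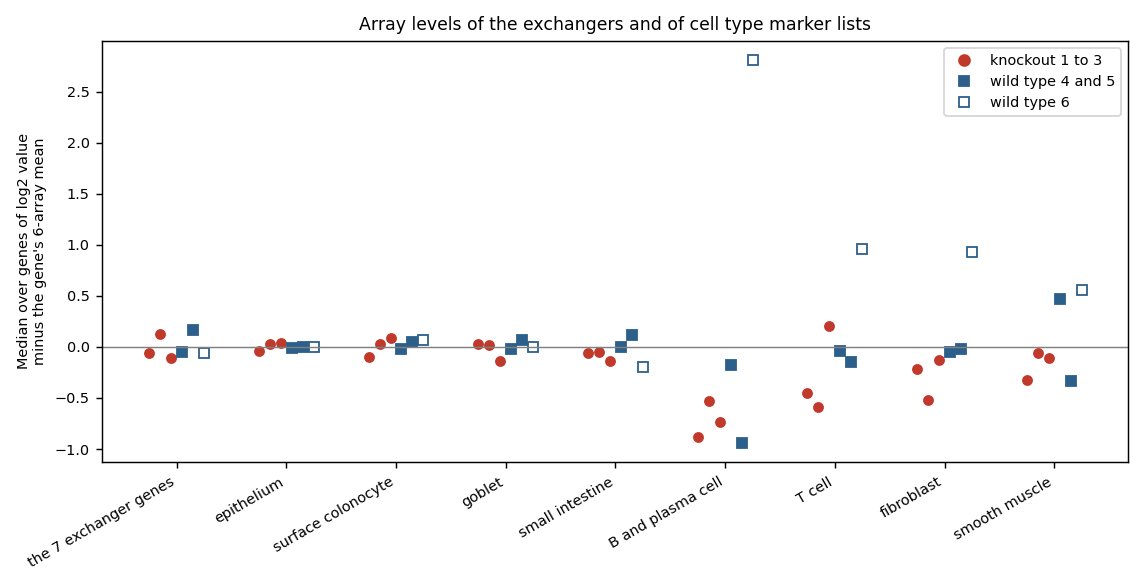
Level of each gene list on each array, as the median over its genes of the log2 value minus the gene's 6-array mean, for knockouts (red circles), wild type 4 and 5 (filled blue squares) and wild type 6 (open squares). The exchangers and the epithelial lists stay near 0 on all 6 arrays, and the B and plasma cell list reaches 2.81 in wild type 6.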

How the data were processed

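Expression was measured with Affymetrix mouse genome arrays in 3 knockout and 3 wild type pools. Per the labels' protocols, epithelium was released with 3 mM EDTA and 0.05 mM DTT over 1.5 to 2 hours without sorting, and 30 ng of RNA was amplified. The deposited log2 values were made by the authors with RMA, per the submitters' processing notes, with no version. Their range, 1.78 to 14.4, shows a log2 scale. Scan dates and detection calls were not used here, and the number of arrays limits the precision.

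Symbols came from the platform annotation (34958 probe sets with 1 symbol, 932 with several, 9211 unnamed). Knockout minus wild type was fitted with limma 3.58.1 in R 4.3.3 on all 45101 probe sets (lmFit and eBayes, two-sided), with Benjamini-Hochberg adjustment over all of them and a threshold of 0.05; other genes were fitted by their brightest probe set over 18194 genes. The script was tested on simulated data. Each array is its own pool, and p-values rest on the spread among pools. Members, lists and motifs were chosen with earlier results of these data known. Named were every member probe set, the deleted genes, up to 4 genes per list by unadjusted p and the 2 nearest profiles. Alternatives covered cyclic loess, brighter probe sets, gene summaries, _x_at and _s_at probe sets, array weights, robust estimation with an intensity trend and leaving out each array.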

Additional observations from a re-analysis of the deposited data

How the results depend on the processing

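No exchanger probe set was called under any alternative run; the smallest adjusted p was 0.746, for Slc9a3 without wild type 6. Among 86 values from other settings 84 kept their direction. Array weights turned 2 of them, Slc26a3 probe set 1453151_at to 0.073 and Slc9a3r1 probe set 1438115_a_at to 0.045; the cause was not tested. Among 90 values with 1 array left out 18 changed direction, all in Slc26a2, Slc26a3, Slc26a6 and Slc9a3r1, whose differences lie near 0. Their lowest and highest values were -0.052 and 0.13 for Slc26a2 probe set 1427195_at, -0.11 and 0.016 (1429467_s_at), -0.28 and 0.11 (1427547_a_at), -0.17 and 0.016 (1421445_at) and -0.27 and 0.25 (1453151_at) for Slc26a3, -0.020 and 0.19 for Slc26a6, and -0.22 and 0.11 (1438115_a_at), -0.24 and 0.013 (1438116_x_at) and -0.094 and 0.0053 (1450982_at) for Slc9a3r1. The median of the members ran from -0.12 to 0.016 with 1 array left out and from -0.066 to -0.021 otherwise. At an unadjusted p under 0.05 there was 1 member, and 1876 probe sets over the array. Without wild type 6 limma called 3 probe sets over the array, none of them a member, and with any other array left out 0. Related genes were counted only with cyclic loess, array weights, robust estimation with an intensity trend and 1 array left out, and gave 0 calls in each. No paired analysis was possible because the groups share no replicate numbers. With 3 pools a group, intervals reached up to 0.72 log2 units either side of a difference. A missed threshold does not show that the genotypes were alike, and changes larger than that could be missed too.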

Other observations

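Slc5a8, the sodium-coupled transporter of short-chain fatty acids at the colonic surface, was the surface colonocyte marker with the smallest unadjusted p, in a list of 7 with 3 below 0, 4 above and a median difference of 0.00097. It gave 11.29, 11.28 and 11.36 in the knockouts, against 11.14, 10.99 and 10.90 in wild type, so the groups were apart. The difference was 0.30 (SE 0.11) and was not called (limma adjusted p = 0.953 over all genes). The next 3 markers by p lay the other way, Guca2a at -0.43 (SE 0.32), Car4 at -0.19 (SE 0.15) and Car1 at -0.12 (SE 0.15). Fabp2, an intestinal fatty acid binding protein, gave 11.77, 10.79 and 11.11 in the knockouts, against 11.85, 12.90 and 10.82 in wild type, highest in wild type 5. Its difference of -0.63 (SE 0.52, limma adjusted p = 0.970) was smaller than the spread within wild type (SD 1.04, n = 3). The small intestine markers did not share an order of arrays. Alpi was also highest in wild type 5, but Fabp6 was lowest there (10.47, against 11.64 in wild type 6). Apoa4 and Apoa1 were highest in wild type 4 and Lct was highest in knockout 2. Of the measured markers only Fabp2 and Fabp6 lay above the median gene, and the others are not shown to be above background.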
